A study of Mus musculus with 12 samples.

Results

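T-box transcription factors are DNA-binding regulators of embryonic patterning, named after T (brachyury), and 10 of them were examined here for H3K27me3: T, Eomes, Tbx1, Tbx2, Tbx3, Tbx4, Tbx5, Tbx15, Tbx18 and Tbx20. They were taken as a fixed list of gene names, and all 10 were found among the 22367 protein-coding genes of the GENCODE M1 annotation of mouse genome build mm9. The list itself uses no measured value. For each gene, the bases lying under H3K27me3 peaks were counted in the promoter, a window of 5001 bp reaching 2500 bp to either side of the transcription start site (TSS), and in the gene window, which is the gene body with 5 kb on either side.

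H3K27me3, the trimethylation of lysine 27 of histone H3, is deposited by Polycomb-repressive complex 2 through its catalytic subunits EZH1 and EZH2 and is linked to transcriptional silencing. Genes of developmental transcription factors are classic carriers of the mark in cells that do not use them. Within the T-box family, T and Eomes act in mesoderm and endoderm formation, Tbx1 in the pharyngeal arches, Tbx20 in the heart, and Tbx2, Tbx3, Tbx4 and Tbx5 in limb and heart development, Tbx15 and Tbx18 acting in skeletal and somite derivatives. Tbx2 and Tbx4 lie side by side on one chromosome, and Tbx3 and Tbx5 on another, as linked pairs that are conserved across vertebrates.

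The data were H3K27me3 ChIP-seq peak lists from C2 iMEFs, a line of mouse embryonic fibroblasts transformed with c-Myc that comes from a single clone carrying a conditional Ezh2 allele and a CreERT2 recombinase at the ROSA26 locus. In experiment 1 there were 2 libraries labelled Ezh2 WT/WT (wild type here) and 2 labelled Ezh2 -/- (knockout here). In experiment 2 there were again 2 wild-type and 2 knockout libraries, with 1 library of cells in the Ezh1 pre-rescue condition and 1 in the Ezh2 pre-rescue condition. In the pre-rescue conditions, Flag-tagged Ezh1 or Ezh2 was stably expressed from a retrovirus before the endogenous gene was deleted with OHT, a tamoxifen metabolite that activates the recombinase. The labels call the control cells Ezh2 WT/WT, whereas the methods derive the clone from Ezh2 flox/Δ cells, with 1 allele floxed and the other already deleted. The control cells are thus the same clone before OHT deletion of the remaining allele. All groups therefore share the c-Myc transgene and 1 clonal origin. Experiment 1 used an Active Motif antibody and SOLiD reads of 75 bp and experiment 2 the monoclonal antibody 7b11 and Illumina reads of 100 bp, so groups were tested only within an experiment, and any value set beside one of the other experiment is a description. The comparisons ask where the mark was called with Ezh2 present, after its deletion, and when Ezh1 or Ezh2 was supplied from a transgene.

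The peak lists hold positions alone, with neither heights nor reads. The number of reads behind a peak is therefore unknown, and a value states how much of a window was called, not how much of the mark was there. In experiment 1 the wild-type lists covered 5.32% and 6.67% of the genome and the knockout lists 0.915% and 2.13%. Peaks of experiment 2 covered 0.561% and 0.424% of the genome in the wild type, against 9.64% with Ezh1 rescue, 3.04% with Ezh2 rescue, and 0.00222% and 0.0181% after deletion alone. The wild-type lists of experiment 2 were thus shorter than the list of the Ezh2 rescue made in the same experiment. Peak widths also differed, as no peak was narrower than 150 bp in experiment 1 or 550 bp in experiment 2. The knockout lists of experiment 1 stood apart in another way, as chromosome 5 held 21.2% and 21.7% of their covered bases while making up 5.75% of the genome. Tbx3 and Tbx5 lie on that chromosome. In these bulk populations, a mark present in fewer cells and a weaker mark in every cell cannot be told apart. No RNA was measured in these libraries. As a check of the cell type, none of 10 fibroblast marker genes, such as Col1a1 and Fn1, had a promoter peak in either wild-type library of experiment 1 (25.0% of all genes). In both of these libraries, 4 of 5 blood marker genes and 3 of 6 epithelial marker genes had one (20.1% of all genes). Vim, which encodes the intermediate filament vimentin, was the fibroblast gene with knockout peaks in experiment 1, 1698 and 1275 bp of its promoter against 0 bp in both wild-type libraries.

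The 250 bp just upstream of the TSS are shown for 5 of the genes, with each CG dinucleotide in capitals, because these stretches span the range of outcomes described here. T, Tbx2 and Tbx4 carried wide peaks, Tbx5 had peaks mainly in the knockout, and Tbx15 had no promoter peak in any library. Sequences were read from build mm9, 5' to 3' on the strand of the gene, and overlap no annotated exon.
T (chr17:8627038-8627287, + strand): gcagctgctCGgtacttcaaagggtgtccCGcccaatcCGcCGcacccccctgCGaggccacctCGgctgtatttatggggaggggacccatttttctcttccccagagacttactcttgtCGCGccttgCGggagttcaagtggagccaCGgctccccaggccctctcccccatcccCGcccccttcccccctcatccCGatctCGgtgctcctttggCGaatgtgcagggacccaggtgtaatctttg
Tbx2 (chr11:85645803-85646052, + strand): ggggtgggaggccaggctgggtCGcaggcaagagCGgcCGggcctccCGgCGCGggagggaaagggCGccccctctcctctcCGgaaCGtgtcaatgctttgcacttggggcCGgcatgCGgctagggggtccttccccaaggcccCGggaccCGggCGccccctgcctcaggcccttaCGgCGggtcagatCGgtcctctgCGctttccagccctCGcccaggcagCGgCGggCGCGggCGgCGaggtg
Tbx4 (chr11:85699674-85699923, + strand): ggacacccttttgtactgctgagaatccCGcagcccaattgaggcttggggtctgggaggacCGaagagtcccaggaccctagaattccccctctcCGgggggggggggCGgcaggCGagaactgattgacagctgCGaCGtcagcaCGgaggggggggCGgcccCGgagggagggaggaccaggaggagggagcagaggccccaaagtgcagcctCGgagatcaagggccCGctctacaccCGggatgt
Tbx5 (chr5:120284422-120284671, + strand): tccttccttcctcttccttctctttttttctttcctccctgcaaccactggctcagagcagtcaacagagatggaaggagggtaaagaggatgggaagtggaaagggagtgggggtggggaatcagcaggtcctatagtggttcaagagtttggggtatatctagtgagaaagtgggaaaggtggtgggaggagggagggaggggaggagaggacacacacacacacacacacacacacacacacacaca
Tbx15 (chr3:99044054-99044303, + strand): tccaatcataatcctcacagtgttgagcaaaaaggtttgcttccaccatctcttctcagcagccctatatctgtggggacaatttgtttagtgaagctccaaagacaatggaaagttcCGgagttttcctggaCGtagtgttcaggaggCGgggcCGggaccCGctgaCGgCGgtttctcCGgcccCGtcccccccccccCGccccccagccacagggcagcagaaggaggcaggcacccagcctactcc

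These stretches held 14 CG dinucleotides at T, 25 at Tbx2, 13 at Tbx4, 0 at Tbx5 and 10 at Tbx15. Over the whole 5001-bp promoter, the 10 genes held between 112 (Tbx5) and 291 (Tbx1) CG dinucleotides, against a median of 96 over all protein-coding promoters. Eomes (261), Tbx1, Tbx2 (285), Tbx3 (258) and Tbx18 (259) were among the 2269 promoters richest in CG, each with at least 183. Of the genes in that class, 26.8% had a promoter peak in both wild-type libraries of experiment 1. The share was 28.2% for promoters with 43 to below 60 CG dinucleotides and 16.4% for those with 112 to below 130. It therefore did not rise steadily with CG content. The T-box half-site AGGTGTGA, searched on both strands, occurred in the promoter windows of Eomes and Tbx15. That is 2 of 10 genes, and 20.2% of all 22367 promoter windows held it, so the family was not set apart by this motif.

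With Ezh2 present in experiment 1, most of the 10 genes carried H3K27me3 at the promoter. In both wild-type libraries, 7 of the 10 had a promoter peak, beside 20.1% of all protein-coding genes. In 6 of them, T, Eomes, Tbx1, Tbx2, Tbx4 and Tbx20, at least 2000 bp of the promoter were covered in both libraries, which held for 10.3% of all genes. The seventh, Tbx18, was covered over 623 bp in replicate 1 and over 6 bp in replicate 2. Averaged over the 10 genes, 2013 and 2084 bp of the promoter lay under wild-type peaks, against 493 and 548 bp over all genes. The heat maps of coverage show that the 6 genes form a block of wide promoter coverage in the wild type and in the rescues.

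**Figure D1:**
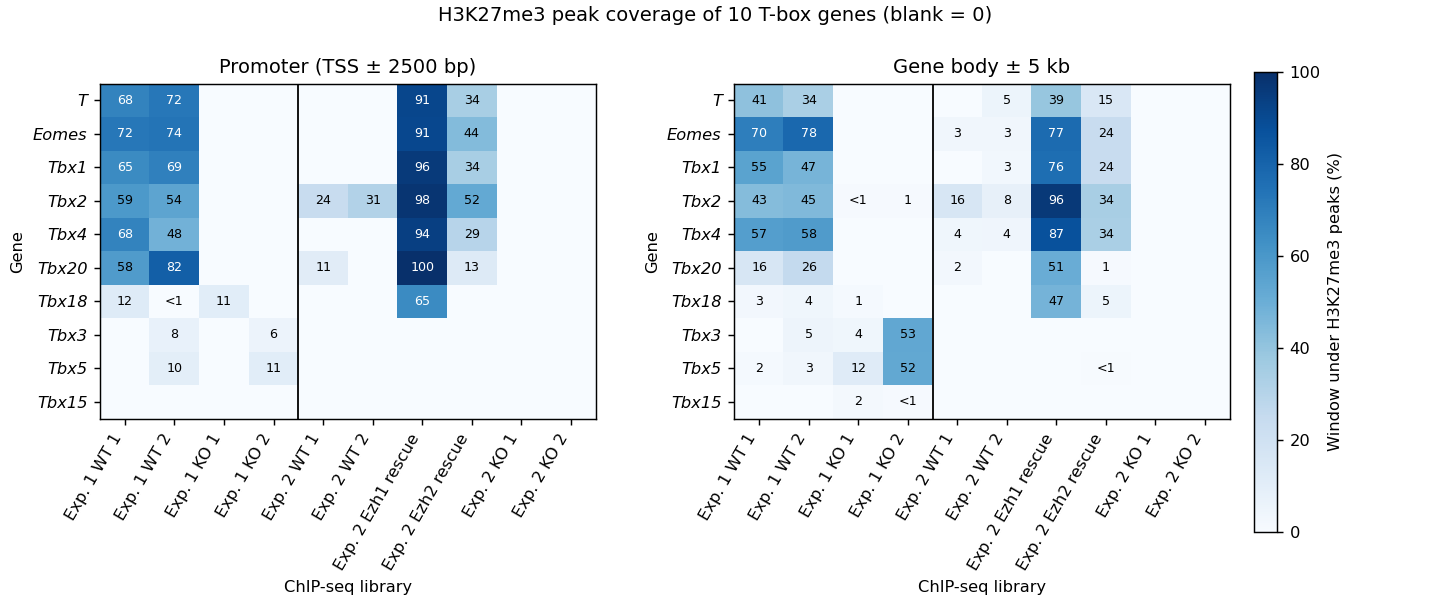
Share of the promoter (left) and of the gene window (right) of each T-box gene lying under H3K27me3 peaks, in percent, in each of the 10 libraries; blank cells are 0 and the vertical line separates the experiments. The top 6 genes were covered over 48.3% to 81.7% of the promoter in both wild-type libraries of experiment 1 and over 0% in both knockout libraries, whereas the gene windows of Tbx3 and Tbx5 were most covered in knockout replicate 2.

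After deletion of Ezh2, the promoters of these 6 genes were without a peak. T, the founding member of the family and a regulator of mesoderm and notochord (chr17:8627288-8635361), had 3399 and 3623 bp of its promoter under peaks in the wild-type libraries of experiment 1 and 0 bp in both knockout libraries. For Eomes, which acts in trophoblast, endoderm and lymphocytes (chr9:118387330-118395250), the wild-type values were 3621 and 3684 bp, and both knockout values were 0. Tbx1, a regulator of the pharyngeal apparatus (chr16:18581806-18588113, minus strand), had 3245 and 3444 bp in the wild type and 0 bp in both knockout libraries. The groups did not overlap at any of these genes, and the wild-type replicates differed by little. Wild-type coverage was 70.2% ± 3.17 of the promoter for T, 73.0% ± 0.891 for Eomes and 66.9% ± 2.81 for Tbx1 (SD, n = 2).

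The spread between wild-type replicates was wider at the cardiac regulator Tbx20 (chr9:24527648-24578746, minus strand), where 2898 and 4084 bp of the promoter were covered, or 69.8% ± 16.8 (SD, n = 2), against 0 bp in both knockout libraries. Tbx2, a transcriptional repressor in limb and heart (chr11:85646053-85655450), had 2953 and 2696 bp in the wild type (56.5% ± 3.63, SD, n = 2) and 0 bp in the knockout. Its neighbour Tbx4, a regulator of the hindlimb and lung (chr11:85699924-85729599), had 3388 and 2417 bp (58.0% ± 13.7, SD, n = 2) and 0 bp. The groups did not overlap at any of the 3 genes, although at Tbx4 and Tbx20 one wild-type library was clearly below the other.

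In all, both wild-type libraries exceeded both knockout libraries in promoter coverage at 6 of 10 genes, and this held for 19.6% of all protein-coding genes. Over all genes, 4389 were in this order, where 4506 had a promoter peak in both wild-type libraries. The order was thus common among marked genes and not particular to the T-box genes. An exact permutation test of 2 against 2 libraries gave a two-sided p of 0.33 for each of the 6, which is the smallest p this design allows, so none could reach 0.05. The study calls the replicates behind its H3K27me3 density plots biological, but neither it nor the labels say whether they were separate cultures, and otherwise such p-values measure only the spread between these libraries. The authors describe scaling down the knockout reads by the DNA recovered, and the lists do not show whether this preceded peak calling, so its part in the knockout values was not tested. No T-box gene had more promoter coverage in both knockout libraries than in both wild-type libraries (3.76% of all genes did).

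Across the gene windows, 7 of the 10 genes were more covered in both wild-type than in both knockout libraries of experiment 1 (29.7% of all genes), the 6 above and Tbx18. Eomes was the most fully covered, with 12484 and 14032 bp, or 69.7% and 78.3% of its window, in the wild type. Tbx4 had the most bases in the wild type, with 22524 and 22975 bp or 56.8% and 57.9%. The window of T was covered over 41.1% and 33.9%, that of Tbx1 over 54.7% and 46.9%, that of Tbx2 over 43.4% and 44.9%, and that of Tbx20 over 15.8% and 25.5%. The knockout had 0 bp in both libraries at T, Eomes, Tbx1, Tbx4 and Tbx20. Among the 6 widely marked genes, Tbx2 was the one with a knockout peak. Counting Tbx3, Tbx5, Tbx15 and Tbx18 as well, 5 of the 10 gene windows held a peak in either knockout list of experiment 1, beside 21.8% of all genes.

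That peak, 161 bp wide in knockout replicate 1 and 225 bp in replicate 2, began at the same base in both libraries, 6107 bp after the TSS in an intron of Tbx2. Its sequence is shown because it is the remaining called stretch of an otherwise uncovered gene window. The 161 bp called in both libraries (1 CG dinucleotide, in capitals) had a GC content of 45.3% and lay outside the bases covered in both wild-type libraries.
Tbx2 intron (chr11:85652160-85652320, + strand): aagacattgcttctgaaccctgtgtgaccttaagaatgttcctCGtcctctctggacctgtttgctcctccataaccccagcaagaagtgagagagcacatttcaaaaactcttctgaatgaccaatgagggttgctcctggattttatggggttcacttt

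**Figure D2:**
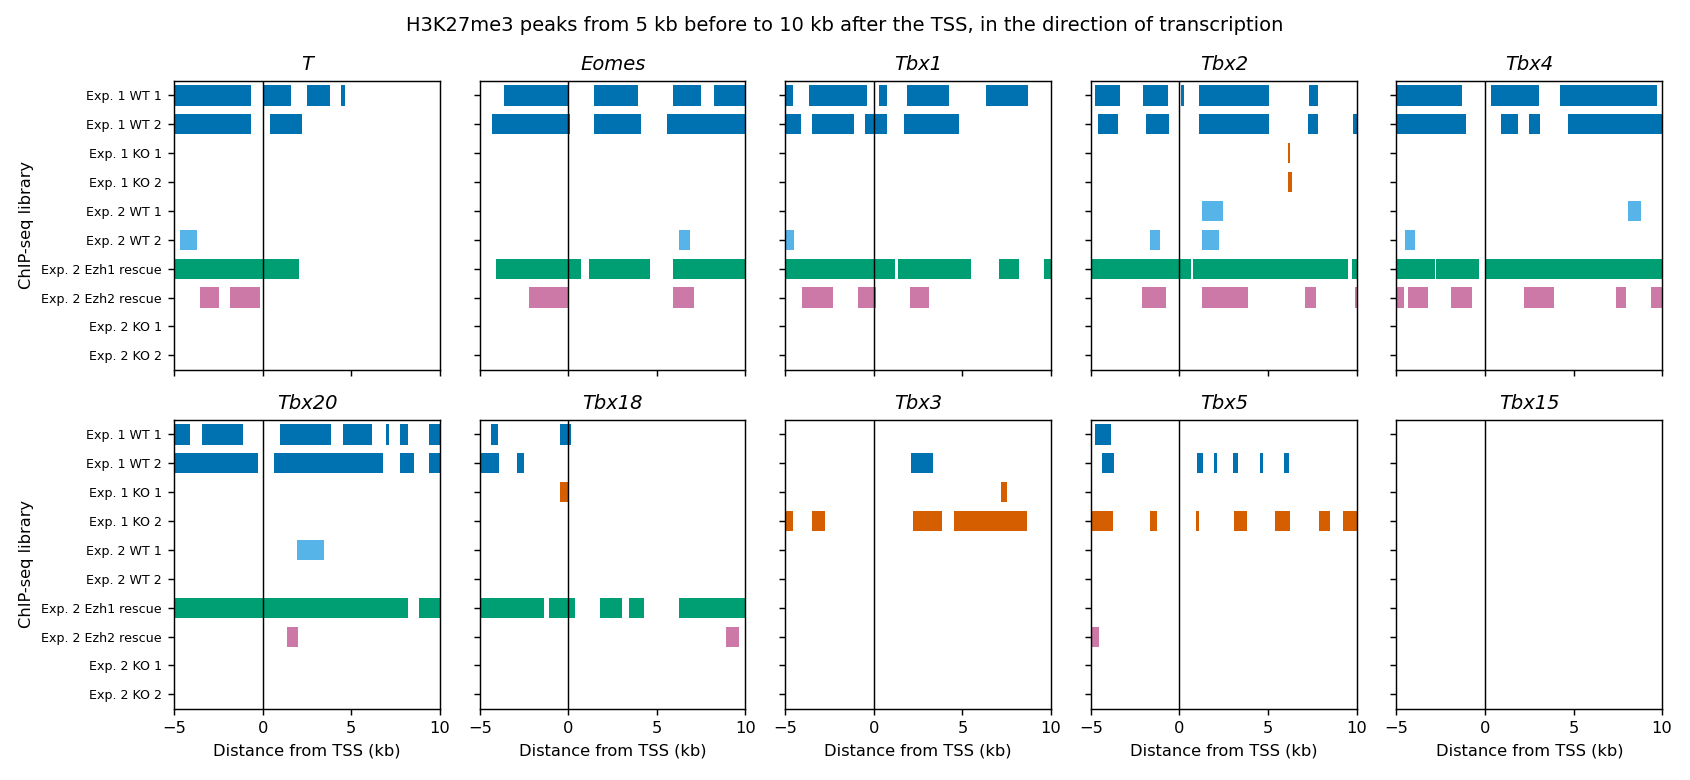
Position of the H3K27me3 peaks (bars) of each library from 5 kb before to 10 kb after the TSS (vertical line) of each T-box gene, in the direction of transcription. In the wild type of experiment 1 the peaks of T, Tbx2, Tbx4 and Tbx20 flank the TSS, those of Eomes (both libraries) and Tbx1 (replicate 2) reach across it, and Tbx15 has no peak in this interval in any library.

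Wild-type coverage of the 6 genes was, on average, lower at the TSS than on either side of it, although a peak ran across the TSS of Eomes in both libraries and that of Tbx1 in replicate 2. From 500 bp before to 500 bp after the TSS, 28.4% and 31.8% of the bases of the 6 genes were covered in the wild-type libraries of experiment 1. From 2500 to 1500 bp upstream the values were 92.6% and 89.6%, and from 1500 to 2500 bp downstream 79.0% and 81.4%. Because the 6 genes were picked for wild-type promoter coverage, the height of their profile follows from that choice. The dip was also present over the 4506 protein-coding genes with a promoter peak in both wild-type libraries, with 32.5% and 37.7% around the TSS against 53.1% and 58.8% upstream and 51.4% and 56.4% downstream. Any promoter peak sufficed there, against at least 2000 bp for the 6 genes, so the depths of the dips are not like for like.

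The dip differed from gene to gene. Within 500 bp of the TSS, Tbx20 was covered over 0% and 21.3% in the wild type, Tbx2 over 17.8% and 0%, and Tbx4 over 16.7% and 0%. Eomes was covered over 54.0% and 60.3%, and a peak spanned its TSS in both libraries. Tbx1 was split between replicates, with 35.3% in replicate 1 and 100% in replicate 2. The 250 bp printed above for T, Tbx2 and Tbx4 held no wild-type peak of experiment 1, so the wide domains of these genes left out the CG-rich stretch directly before the start.

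**Figure D3:**
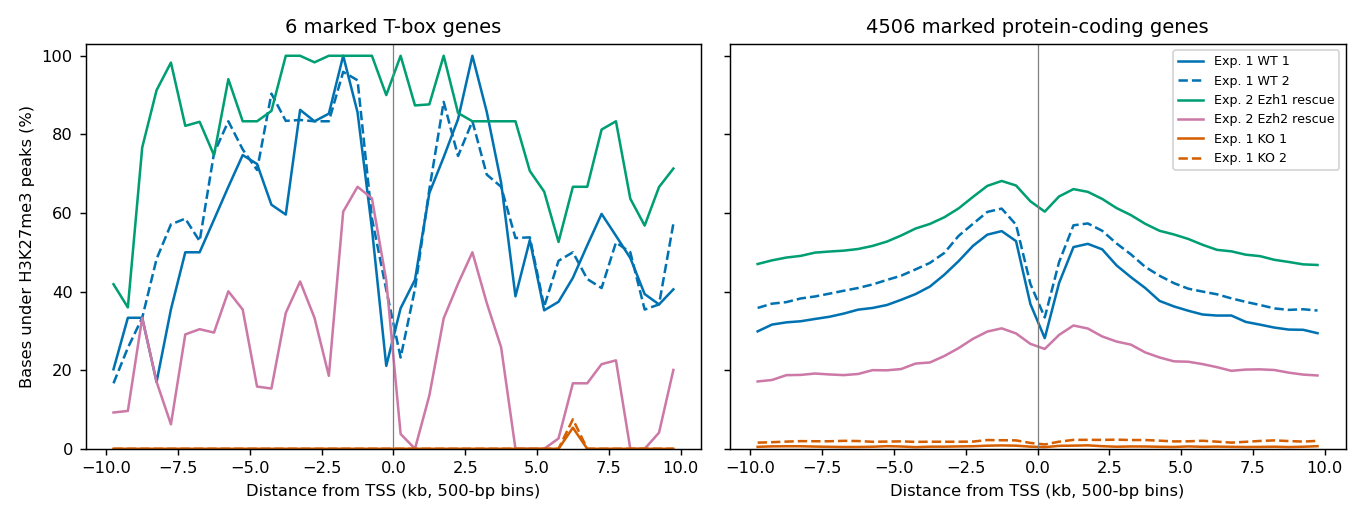
Percentage of bases under H3K27me3 peaks in 500-bp bins by distance from the TSS (kb) for the 6 widely marked T-box genes (left) and for all 4506 protein-coding genes with a promoter peak in both wild-type libraries of experiment 1 (right), 1 line per library. Wild-type lines dip at the TSS in both panels, the Ezh1 rescue stays at 87.4% or more from 500 bp before to 1500 bp after the TSS of the T-box genes, and knockout lines stay near 0.

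In experiment 2 the wild-type lists were short, and few T-box genes were in them. Tbx2 had 1200 and 1550 bp of its promoter under wild-type peaks and 0 bp in both knockout libraries, an average of 27.5% ± 4.95 of the window (SD, n = 2), and both wild-type libraries lay above the knockout (exact permutation p = 0.33, two-sided). It was the only one of the 10 genes with a promoter peak in both wild-type libraries (3.11% of all genes) and the only one where both exceeded both knockout libraries (3.03% of all genes). With a promoter of 1000 bp on either side of the TSS instead, both counts were 0, and without wild-type replicate 2 both were 2. Tbx20 had 555 bp in wild-type replicate 1 and 0 bp in replicate 2, so the groups overlapped, and the other 8 genes had 0 bp in both.

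The gene windows of experiment 2 gave 3 of 10 genes with more coverage in both wild-type than in both knockout libraries (11.1% of all genes). Tbx2 had 3050 and 1550 bp, Tbx4 1400 and 1650 bp and Eomes 600 and 600 bp in the wild type. T, Tbx1 and Tbx20 had bases under peaks in 1 wild-type library each, 950, 463 and 1500 bp, and overlapped the knockout at 0. The Eomes peaks stood at different places, downstream of the gene in replicate 1 and over an exon in replicate 2. With peaks of at least 1000 bp the count was 1, and without wild-type replicate 1 it was 5. No promoter or gene window of the 10 genes held a peak in either knockout library of experiment 2, where 0.380% of all promoters and 0.872% of all gene windows had one. Lists of experiment 2 held no peak under 550 bp, whereas the Tbx2 knockout peaks of experiment 1 were 161 and 225 bp wide.

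The rescue conditions, with 1 library each and hence no test, both had peaks at the genes marked in the wild type. A promoter peak was present at 7 of 10 genes with Ezh1 (28.2% of all genes) and at 6 of 10 with Ezh2 (18.8% of all genes). More promoter bases lay under peaks in the Ezh1 than in the Ezh2 rescue at all 7 genes that had a peak in either, which is 7 of 10 beside 26.9% of all genes. Over all genes, 6012 were in this order, where 6317 had a promoter peak with Ezh1, so the order was common among genes with peaks. T had 4563 bp of its promoter covered with Ezh1 and 1713 bp with Ezh2. Eomes had 4551 and 2200 bp, in the same order. Tbx1 had 4801 and 1701 bp. Each of these genes was thus covered over 91.0% to 96.0% of the promoter with Ezh1 and over 34.0% to 44.0% with Ezh2.

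The same order held for the limb and heart genes. Tbx2 had 4901 bp with Ezh1 and 2603 bp with Ezh2, and Tbx4 4701 and 1474 bp. Tbx20 was covered over the whole promoter, 5001 bp, with Ezh1 and over 650 bp with Ezh2, the widest gap among the 6 widely marked genes. Tbx18 had 3251 bp with Ezh1 and none with Ezh2. The average over the 10 genes was 3177 bp with Ezh1 and 1034 bp with Ezh2, against 810 and 337 bp over all genes. The lists do not show whether the scaling that the authors describe for the Ezh1 rescue was applied before peaks were called, and its part in these values was not tested.

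Over the gene windows, the Ezh1 rescue had more bases under peaks than the Ezh2 rescue at 7 of 10 genes (40.3% of all genes). The ratio of covered bases was 2.57 for T, 2.59 for Tbx4, 2.83 for Tbx2, 3.18 for Tbx1 and 3.26 for Eomes. It was 9.12 for Tbx18 and 47.5 for Tbx20, the 2 genes with little coverage in the Ezh2 rescue. At T, Tbx1, Tbx2, Tbx4 and Tbx20, 100% of the bases covered in the Ezh2 rescue were also covered in the Ezh1 rescue, and the share was 95.3% for Eomes and 67.5% for Tbx18. In the other direction, the share of Ezh1 rescue bases also covered in the Ezh2 rescue was 38.9% for T, 38.6% for Tbx4, 35.3% for Tbx2, 31.4% for Tbx1, 29.2% for Eomes and 7.40% for Tbx18. At Tbx20, the single Ezh2 rescue peak of 650 bp lay within 30899 bp covered in the Ezh1 rescue. At these genes the Ezh2 rescue peaks were largely nested within those of the Ezh1 rescue, least so at Tbx18. Tbx5 went the other way, with 429 bp of its gene window covered in the Ezh2 rescue and 0 bp in the Ezh1 rescue. The Ezh1 rescue list covered 9.64% of the genome and the Ezh2 rescue list 3.04%, and nesting was not measured over all genes.

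The rescues were also set beside the bases covered in both wild-type libraries of experiment 1. Those libraries were made with another antibody and platform, and their peaks went down to 150 bp, against 550 bp in the rescue lists. The Ezh1 rescue covered 100% of these bases at T, Tbx1, Tbx2, Tbx18 and Tbx20, 99.7% at Tbx4 and 88.0% at Eomes. The Ezh2 rescue covered 58.7% at Tbx2, 49.4% at Tbx4, 42.5% at Tbx1, 41.1% at T, 35.3% at Eomes, 7.26% at Tbx20 and 0% at Tbx18. The dip at the TSS was not seen in the Ezh1 rescue, where 95.0% of the central bases of the 6 genes were covered, against 100% upstream and 92.7% downstream. In the Ezh2 rescue the values were 23.3%, 39.5% and 37.6%. Over the 4506 marked genes the Ezh1 rescue had 61.7% at the centre, 65.5% upstream and 64.5% downstream, and the Ezh2 rescue 26.1%, 28.9% and 29.6%. Those genes needed any wild-type promoter peak and the 6 at least 2000 bp, so their levels are not like for like. The 250 bp before the start of T and of Tbx2, printed above, were covered in full in the Ezh1 rescue, while 23 bp of those of Tbx4 were.

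Tbx2 and Tbx4, which lie 44473 bp apart, formed a marked stretch with little around it. The stretch from 20 kb before Tbx2 to 20 kb after Tbx4 (chr11:85626053-85749599) was covered over 29.9% and 31.7% in the wild-type libraries of experiment 1 and over 0.130% and 0.182% in the knockout libraries. In experiment 2 it was covered over 5.67% and 2.59% in the wild type, 68.8% when Ezh1 was supplied, 22.7% when Ezh2 was supplied and 0% in both knockout libraries. The bases between the genes were covered over 24.0% and 28.3% in the wild type of experiment 1 and over 57.3% in the Ezh1 rescue, so the mark was not restricted to the gene bodies. In windows of the same length, 4 on either side, wild-type coverage in experiment 1 was 0% except for 0.223% in replicate 2 in the window just downstream. The Ezh1 rescue had 19.6% in the window just upstream and 4.05% in the one just downstream. Chromosome 11 was tiled with 986 windows of this length. In the wild type of experiment 1, 101 (10.2%) and 111 (11.3%) of them were covered at least as much as the Tbx2-Tbx4 stretch. The upstream neighbour Bcas3 and the lincRNA 2610027K06Rik reach into this stretch, and Gm11444 lies between the genes.

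**Figure D4:**
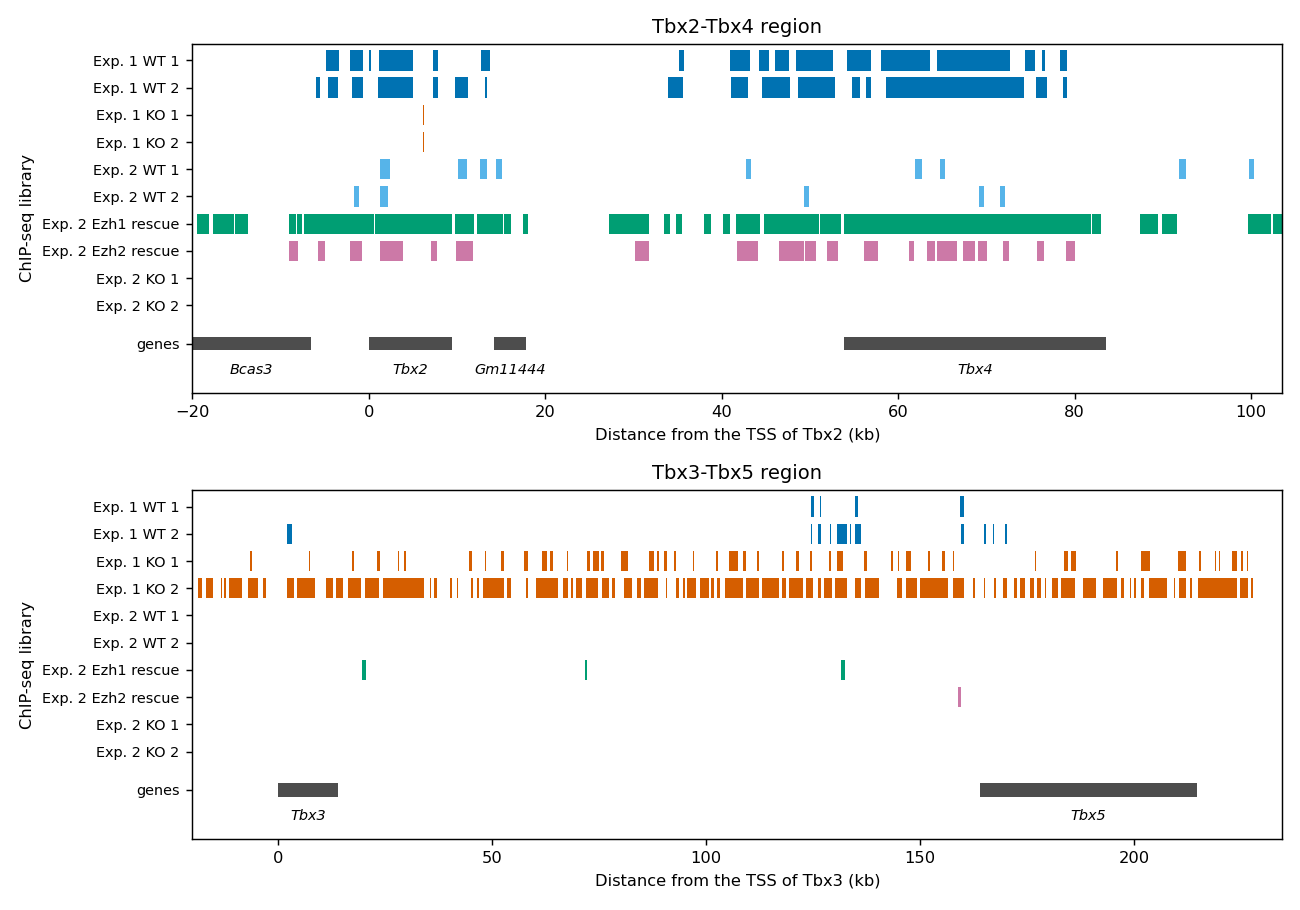
Position of H3K27me3 peaks (bars) in each library over the Tbx2-Tbx4 region (top) and the Tbx3-Tbx5 region (bottom), with 20 kb on either side and distance in kb from the first TSS; grey bars are protein-coding genes. Wild-type and rescue peaks cluster at Tbx2 and Tbx4, whereas over Tbx3 and Tbx5 the dense peaks belong to the knockout libraries of experiment 1.

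The paralogous pair on chromosome 5 showed the opposite pattern in experiment 1. Tbx3, a repressor related to Tbx2 (chr5:120120678-120134733), had 0 and 1217 bp of its gene window under peaks in the wild type and 916 and 12755 bp in the knockout. The groups overlapped, since wild-type replicate 2 lay above knockout replicate 1 (exact permutation p = 0.67, two-sided). Tbx5, a regulator of forelimb and heart (chr5:120284672-120335227), had 917 and 2001 bp in the wild type and 7161 and 31704 bp in the knockout. Here both knockout values lay above both wild-type values (exact permutation p = 0.33, two-sided), but the knockout replicates were far apart, at 11.8% and 52.4% of the window. The knockout libraries had 8 and 23 peaks in the Tbx5 window, with 6392 and 24441 bp in introns. The window of 60556 bp is itself mostly intronic, as the gene spans 50556 bp and its exons 3941 bp.

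At the promoters, neither gene separated the groups. Tbx3 had 0 and 389 bp in the wild type and 0 and 283 bp in the knockout, and Tbx5 0 and 500 bp against 0 and 533 bp. Together with Tbx18 these were the 3 of 10 genes whose promoter held a peak in at least 1 knockout list of experiment 1, beside 10.6% of all genes, or 18.9% of genes on chromosome 5 and 10.1% of the others. None of the 10 had one in both (4.47% of all genes). The count of 3 was 1, Tbx18, without knockout replicate 2, and 1 when only peaks of at least 1000 bp were used. In experiment 2 neither Tbx3 nor Tbx5 had a promoter peak in any library, and within the gene windows the one value above 0 was 429 bp upstream of Tbx5 in the Ezh2 rescue.

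The knockout peaks of experiment 1 were not particular to the 2 genes but ran across the region. From 20 kb before Tbx3 to 20 kb after Tbx5 (chr5:120100678-120355227), the wild-type libraries were covered over 1.03% and 3.25%. Knockout coverage was 14.0% in 50 peaks in replicate 1 and 57.6% in 80 peaks in replicate 2. The bases between the genes were covered over 17.1% and 61.6% in the knockout, at least as much as the genes themselves. The 3 windows of the same length upstream (chr5:119337028-120100677) had 0% in both wild-type libraries, 21.2% to 25.0% in knockout replicate 1 and 67.5% to 69.6% in knockout replicate 2. The next 2 windows downstream had 20.9% and 23.1% in knockout replicate 1 and 64.6% and 60.3% in replicate 2. The wild type was also covered in the second of these, over 31.1% and 43.5%. The outermost window upstream had 11.9% and 33.5% in the knockout and 7.30% and 6.78% in the wild type. In the last 2 windows downstream, knockout coverage was 4.85% and 25.2%, then 13.7% and 53.8%. Wild-type coverage there was 23.0% and 22.0%, then 35.0% and 43.6%.

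**Figure D5:**
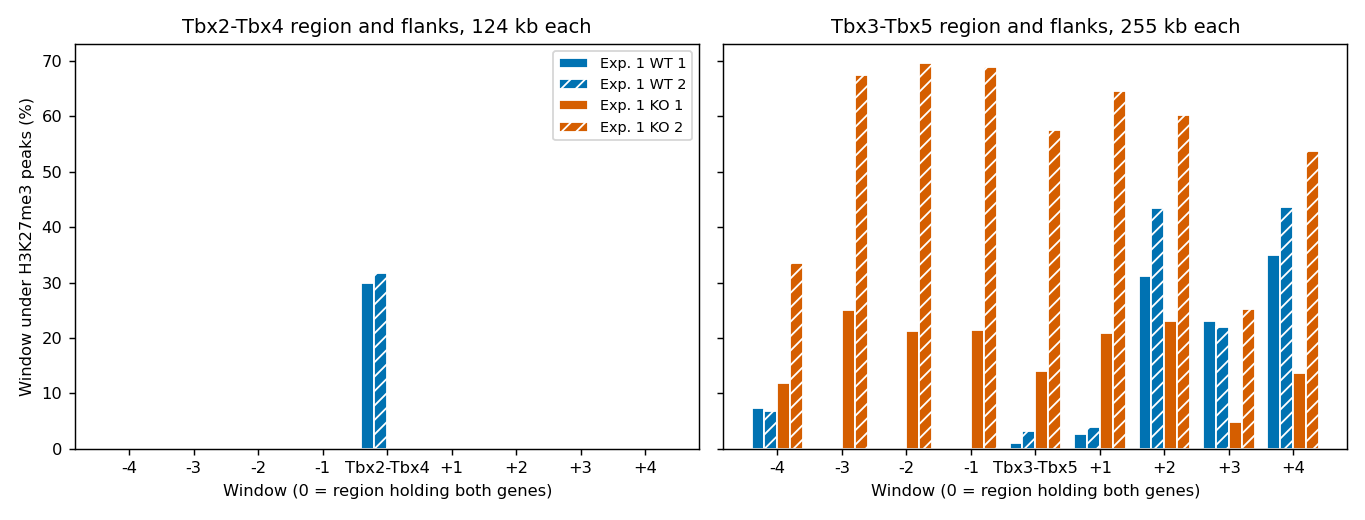
Percentage of bases under H3K27me3 peaks in experiment 1 in the region holding Tbx2 and Tbx4 (left) and Tbx3 and Tbx5 (right) and in 4 windows of equal length on either side, numbered by their distance in region lengths. Around Tbx2 and Tbx4 only the region itself has wild-type coverage above 1%, whereas knockout coverage around Tbx3 and Tbx5 extends over the neighbouring windows.

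High knockout coverage was also called elsewhere on the chromosome. Of the 599 windows of this length that tile chromosome 5, 59 (9.85%) were covered at least as much as the Tbx3-Tbx5 region in knockout replicate 1 and 25 (4.17%) in replicate 2, and the median window had 0.571% and 0.876%. Chromosome 5 as a whole was covered over 3.38% and 8.05% in the knockout libraries, against 0.765% and 1.77% of the other chromosomes. In the wild type the values were 6.16% and 7.34% on chromosome 5 and 5.27% and 6.63% elsewhere. The part that this chromosome-wide difference has in the values of Tbx3 and Tbx5 was not tested. In experiment 2, the Tbx3-Tbx5 region was covered over 0% in both wild-type and both knockout libraries, 1.02% with Ezh1 and 0.216% with Ezh2.

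With Tbx15, a regulator of skeletal development (chr3:99044304-99158182), Tbx5 made up the 2 of 10 genes with more gene-window coverage in both knockout than in both wild-type libraries of experiment 1. Over all genes the share was 9.39%, with 16.7% on chromosome 5 and 8.94% elsewhere. Tbx15 had 0 bp in both wild-type libraries and 2863 and 1081 bp in the knockout (exact permutation p = 0.33, two-sided). The knockout peaks fell at the same 2 intronic places in both libraries. One began 14123 bp after the TSS in both, 1883 and 470 bp wide, and the other 24711 and 24947 bp after it, 980 and 611 bp wide. These peaks made up 2.31% and 0.873% of the gene window. When only peaks of at least 1000 bp were used, the count of 2 was 1, Tbx5. In experiment 2 Tbx15 had 0 bp in all 6 libraries.

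Tbx18, a regulator of somites and epicardium (chr9:87597635-87626095, minus strand), varied between replicates. In experiment 1, wild-type replicate 1 had a 623-bp peak over the TSS and knockout replicate 1 a 531-bp peak at nearly the same place, from 489 bp before to 41 bp after the TSS, whereas neither replicate 2 had a peak there. The promoter values of the groups therefore overlapped (exact permutation p = 0.67, two-sided). Over the gene window, 1039 and 1475 bp were covered in the wild type and 531 and 0 bp in the knockout, so that the groups did not overlap (exact permutation p = 0.33, two-sided). In experiment 2 both wild-type libraries had 0 bp, the Ezh1 rescue 18245 bp in 10 peaks, the widest of 11750 bp, and the Ezh2 rescue 2000 bp in 3 peaks. The Ezh1 rescue peaks thus took in 47.4% of the gene window and the Ezh2 rescue peaks 5.20%.

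Other genes of the family and of its pathway gave a mixed picture. Of 7 further T-box genes, 3 had a promoter peak in both wild-type libraries of experiment 1 (20.1% of all genes) and exceeded both knockout libraries (19.6% of all genes). None of the 7 had a promoter peak in a knockout library of experiment 1 (10.6% of all genes) or of experiment 2 (0.380%). Tbx19, a pituitary regulator, was covered over all 5001 bp in both wild-type libraries and 0 bp in both knockout libraries. Tbx21, which directs type 1 helper T cells, had 4059 and 4012 bp, and Tbx10 had 4002 and 4033 bp, each with 0 bp in the knockout.

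Among 10 genes of signals that act upstream of T-box genes, 6 had a promoter peak in both wild-type libraries of experiment 1 (20.1% of all genes) and exceeded both knockout libraries (19.6% of all genes). Wnt3a, a ligand that acts on T in the tailbud, had 4245 and 4096 bp in the wild type and 0 bp in the knockout of experiment 1, but in experiment 2 it had 700 and 0 bp in the wild type and 1000 and 2047 bp in the knockout, so that there the knockout lay above the wild type. Shh, the hedgehog ligand of the notochord, had 4109 and 3800 bp in the wild type and 0 bp in the knockout of experiment 1, and 1650 and 1750 bp against 0 and 1050 bp in experiment 2. Fgf8 had 3671 and 3523 bp against 0 bp. Promoter peaks in a knockout library of experiment 1 were present at Wnt3, Aldh1a2 and Bmp2. Wnt3 had 641 and 1077 bp in the knockout, against 3800 and 3225 bp in the wild type. Aldh1a2 had 0 and 348 bp, against 2345 and 2793 bp. Bmp2 had 0 and 636 bp, against 0 bp in both wild-type libraries.

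Of 15 genes of T-box partners and targets, 9 had a promoter peak in both wild-type libraries of experiment 1 (20.1% of all genes) and 8 exceeded both knockout libraries (19.6% of all genes). Cdkn1a, the cell cycle inhibitor p21 that Tbx2 and Tbx3 repress, had 4777 and 4764 bp in the wild type of experiment 1 and 0 bp in the knockout. Pitx1, a hindlimb factor upstream of Tbx4, had 4207 and 5001 bp, and Nkx2-5, a cardiac partner of Tbx5, had 4245 and 4396 bp, both with 0 bp in the knockout. Hand2, a factor of limb and heart, had 944 and 783 bp in the knockout libraries of experiment 1, against 3884 and 3983 bp in the wild type. In experiment 1, no gene of these 3 lists had more promoter coverage in both knockout than in both wild-type libraries.

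The genes outside the family with the most similar promoter coverage over the 10 libraries, by mean absolute difference, were Mgat3 for Eomes (0.0940 percentage points), Psmb8 for T (0.814), Slc30a10 for Tbx4 (1.22), Phyhip for Tbx1 (1.28), Pkdrej for Tbx20 (2.41) and Lad1 for Tbx2 (3.04). For the genes with little coverage they were Tomm70a for Tbx5 (0.442), Ces1d, tied with another gene, for Tbx3 (0.568) and 4930438A08Rik for Tbx18 (1.24). Mgat3 matched Eomes closely, with 3609 and 3649 bp in the wild type of experiment 1, 4551 bp with Ezh1 rescue, 2200 bp with Ezh2 rescue and 0 bp in the other libraries. The comparison was made for genes with a promoter peak in any library, which leaves out Tbx15.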

How the data were processed

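H3K27me3 ChIP-seq peak lists of 10 libraries in 6 groups were used. Input samples, 2 in number, were not used here. Groups and replicate numbers come from the labels.

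The authors aligned reads to mm9, removed duplicates, down-sampled to a common number, scaled some conditions by the immunoprecipitated DNA and called peaks per sample against input. Tools listed in the submitters' processing notes are MACS2 2.0.10, HOMER 3.17, SAMtools, Bowtie2 2.1.0 and Bowtie 0.12.8. The deposited files give chromosome, start and end only, so no score or depth was available and precision rests on the 2 libraries per group. The lists do not show whether the scaling preceded peak calling, which would change how much was called.

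Exact duplicate peaks were merged and mitochondrial peaks left out. Positions are 1-based. As TSS, the 5' end of each GENCODE M1 gene was taken, and a peak overlapped a window by at least 1 bp. Wild type and knockout were compared within an experiment by exact permutation, two-sided, for every protein-coding gene. Shares of all genes stand beside counts, without p-values adjusted over the list. The members and gene lists were chosen with earlier results of these data known. Named genes are all members, up to 3 genes of each list with the most wild-type promoter bases, those with a knockout promoter peak, and the most similar gene outside the family, except 1 list gene that is not reported here. Spi1 was matched under its older symbol. Window coverage was tested on simulated data, with 0 mismatches to a brute-force count over 4000 windows. Alternatives joined near peaks, required a minimum width or overlap, changed windows or TSS, left out each replicate or compared within replicate number. Calculations used Python 3.11.15 and NumPy 2.4.6, and figures matplotlib 3.10.9.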

Additional observations from a re-analysis of the deposited data

How the results depend on the processing

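Of 81 alternatives to the counts of genes, 72 stayed within 1.5 times the value reported, and 84 of 99 alternatives to the promoter difference of a single gene kept its direction, while its size in bp followed the promoter width by construction. The replicate block leaves a single-gene difference unchanged by construction. Leaving out a knockout library does so too where both hold 0 bp, so part of the 84 was fixed in advance. Part of the 72 was fixed as well. In experiment 2 the count of promoters with a knockout peak was 0. It could not rise with fewer peaks, fewer libraries, a narrower promoter or a minimum overlap. With peaks of at least 1000 bp, the promoters with a peak in at least 1 knockout list of experiment 1 were 1 instead of 3, those with more gene-window coverage in both wild-type than both knockout libraries of experiment 2 were 1 instead of 3, and those with more in both knockout than both wild-type libraries of experiment 1 were 1 instead of 2. The last comparison and its alternatives were chosen after seeing the data. With a promoter of 1000 bp on either side, the genes of experiment 2 with a promoter peak in both wild-type libraries, and those above both knockout libraries, were each 0 instead of 1. Leaving out 1 library gave 1 to 2 promoters with a knockout peak in experiment 1, 1 to 2 for each of the 2 promoter counts of experiment 2 and 3 to 5 for its gene windows. The cause was not tested, beyond the fewer peaks or libraries that an alternative leaves by construction.

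Wild-type minus knockout promoter differences of 3 genes in experiment 1 changed sign. For Tbx3, 53 bp became -1010 bp with a promoter of 5000 bp on either side and ranged from -141.5 bp (without wild-type replicate 2) to 247.5 bp with 1 library left out, and was -88.5 bp without knockout replicate 1. For Tbx5, -16.5 bp became 492.5 bp with peaks under 1000 bp apart joined, 57 bp with the 5000-bp promoter and 233.5 bp without wild-type replicate 1, and ranged from -283 to 250 bp (without knockout replicate 2) with 1 library left out. For Tbx18, 49 bp became -216.5 bp without knockout replicate 2 and ranged from -259.5 bp (without wild-type replicate 1) to 357.5 bp with 1 library left out. At these genes the replicates of a group disagreed.

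Same-numbered libraries did not deviate together (r across genes of 0.0332 in experiment 1 and -0.0277 in experiment 2). With 2 libraries per group, this cannot tell whether same-numbered libraries shared a preparation. With the replicate block, wild type exceeded knockout at 7 promoters and 7 gene windows of experiment 1 and at 1 and 3 of experiment 2, and the reverse held for 3 gene windows of experiment 1. The smallest exact permutation p of the block is 0.50. The reads behind each peak are unknown, although the authors down-sampled the libraries to a common number, each rescue has 1 library, and no test of 2 against 2 libraries could reach 0.05.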
